A study of Mus musculus with 15 samples.

Results

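The difference between HOXB4 and control blood stem and progenitor cells was compared between 12 and 20 weeks after transplantation, gene by gene. The measure is an interaction on the log2 scale: the HOXB4 minus GFP difference at 20 weeks, less the same difference at 12 weeks. It rests on 12 of the 15 arrays of the series, 3 in each of 4 groups, and was computed for 17097 genes. Of these, 87 genes (0.509%) passed limma's test at an adjusted p under 0.05. The interaction was negative for 66 of them (0.386% of genes tested) and positive for 21 (0.123%). At an unadjusted p under 0.05 there were 1675 genes (9.8%), 4.27% of all genes negative and 5.53% positive, and counts of list members at that p below are to be read against these shares. A negative value means that the level under HOXB4, relative to GFP, was lower at 20 weeks than at 12 weeks; it can come from a rise in GFP cells or from a fall in HOXB4 cells. Each gene was therefore also described by the position of its 4 group means. For 65 of the 87 the GFP group at 20 weeks stood apart, highest in 55 and lowest in 10. Position does not show that GFP cells alone moved. The HOXB4 change in time had an unadjusted limma p under 0.05 in 18 of those 55 and 3 of those 10.

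HOXB4 is a homeobox transcription factor that binds DNA together with PBX and MEIS cofactors, and its forced expression is known to expand blood stem cells in transplanted mice. LSK cells are the lineage-negative, Sca-1+ and Kit+ fraction of bone marrow, which holds the stem cells and the multipotent progenitors that give rise to all blood cells. As progenitors enter the granulocyte path they make primary granule proteins, such as myeloperoxidase, before secondary and tertiary granule proteins, such as lactoferrin and lipocalin 2, which are made under the control of C/EBP factors.

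The labels give female mice of the C57Bl/6 strain. Donors had received 5-fluorouracil, which kills cycling marrow cells; their marrow was infected with a retrovirus that carried either HOXB4 linked through an ires to yellow fluorescent protein (HOXB4-YFP) or green fluorescent protein alone (GFP), and was given to recipients that had been lethally irradiated. Both control and HOXB4 cells had thus been transduced, transplanted and sorted as fluorescent LSK cells, and neither was cultured before extraction. The 4 groups were GFP at 12 weeks, HOXB4 at 12 weeks, GFP at 20 weeks and HOXB4 at 20 weeks. A further group, HOXB4 at 6 weeks, helped to estimate the spread and is used below as a set of levels only, with no GFP arrays of that time analysed here. The titles of the samples give 20 weeks for the last time and the series text gives 24 weeks; the titles were followed. HOXB4 was expressed from an MSCV retrovirus and not from its own locus, the control carried GFP and not YFP, and the number of mice or of integration sites behind an array is not given. Whether replicate arrays stand for separate animals is not stated in the labels, and the p-values therefore measure only how far these arrays differ, possibly for technical reasons.

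The signals are log2 values after RMA, a method that corrects background, equalises the distributions of the arrays and sums probes to probe sets. The median of an array lay between 5.247 and 5.332 on the 12 arrays. Control probes that match no mouse gene had medians between 2.5 and 2.83, and the brightest of them read between 4.06 and 5.19, so values below about that level may be background. The lowest of the 4 group means was under 5.19 for 45 of the 87 genes, and all 4 means were under it for 5 of them; a fold computed against such a group understates a change. The signal difference between the 3' and 5' control probes of Gapdh, a sign of RNA integrity, was 0.81 to 1.25 in GFP at 12 weeks, 0.93 to 1.02 in HOXB4 at 12 weeks, 1.0 to 1.37 in GFP at 20 weeks and 1.21 to 2.02 in HOXB4 at 20 weeks. Of the genes that define the sort Kit was measured, with an interaction of 0.33 (adjusted p = 0.597), and Ly6a, the gene of Sca-1, was not measured under a single symbol. Among genes that divide LSK cells further, Cd34 (0.62, adjusted p = 0.2), Flt3 (1.70, 0.146) and Slamf1 (0.15, 0.981) did not pass in the interaction, and Cd34 fell by 0.80 in GFP cells with time (adjusted p = 0.00465). The Slamf1 value averages unlike arrays, with 5.15, 8.32 and 6.83 in HOXB4 at 20 weeks. Between the vectors, limma called Kit (-0.63, adjusted p = 0.014) and Cd34 (-0.75, 0.00731) lower under HOXB4 at 12 weeks. At 20 weeks it called Flt3 (1.41, 0.0128) and Slamf1 (1.80, 0.0377) higher. In bulk RNA, more cells of a type and more RNA per cell cannot be told apart, and this holds for every result below.

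Replicate 3 of GFP at 20 weeks stood apart from the other GFP arrays of that time. Flt3, a receptor of multipotent and lymphoid-primed progenitors, read 9.08 on it against 7.63 and 7.40 on replicates 1 and 2. Among the 55 genes that were highest in GFP at 20 weeks it was the lowest of the 3 arrays in 43, with a median of -0.48 against the mean of the others. Without that array limma called 222 genes in place of 87, all 87 among them; 132 of the 222 were highest in GFP at 20 weeks. The count of 87 also rested on the arrays in the other direction: it was 38 without HOXB4 at 12 weeks replicate 2 and 39 without GFP at 20 weeks replicate 1.

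**Figure D1:**
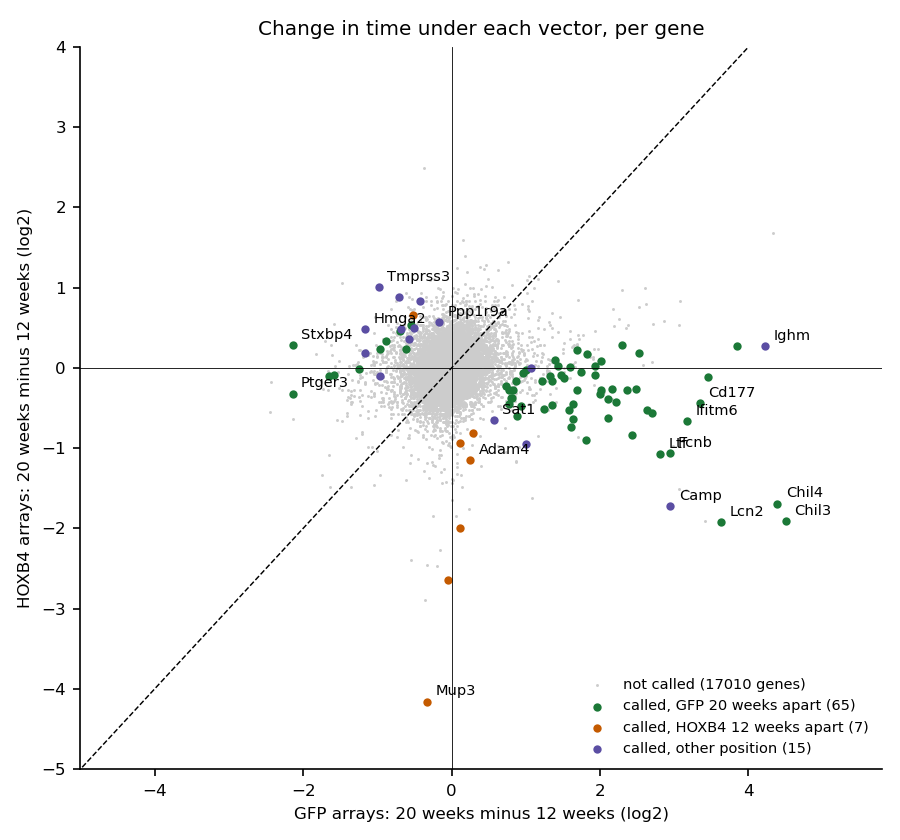
Each point is a gene, with its change from 12 to 20 weeks on the GFP arrays (x axis, log2) and on the HOXB4 arrays (y axis, log2); the dashed line marks equal changes and so an interaction of 0. Grey points are the 17010 genes not called, and coloured points the 87 called, split into 65 where GFP at 20 weeks stood apart, 7 where HOXB4 at 12 weeks did and 15 others; most called genes lie along the x axis, with Mup3 lowest on the y axis.

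The 3 genes with the most negative interactions of all genes tested belong to neutrophils and macrophages: Chil3, Chil4 and Lcn2. The stretches of 250 bases upstream of their RefSeq start sites (GRCm38.p6) are shown because Chil3 and Chil4 are neighbouring paralogs whose tested probe sets gave like values, and Lcn2 lies on another chromosome. Chil3 lies at chr3:106167565-106167814, Chil4 at chr3:106219480-106219729 and Lcn2 at chr2:32387740-32387989, all on the minus strand, and each sequence is written 5′ to 3′ on the strand of the gene. Capitals mark matches, on either strand, to any of 4 short motifs, which do not overlap in these stretches. The core bound by C/EBP factors was searched as TTGCNNAA and that of PU.1 as GAGGAAG. For the erythroid and megakaryocyte factors of the GATA family the letters were AGATAA, and for HOX proteins with PBX they were TGATTNAT.
Chil3: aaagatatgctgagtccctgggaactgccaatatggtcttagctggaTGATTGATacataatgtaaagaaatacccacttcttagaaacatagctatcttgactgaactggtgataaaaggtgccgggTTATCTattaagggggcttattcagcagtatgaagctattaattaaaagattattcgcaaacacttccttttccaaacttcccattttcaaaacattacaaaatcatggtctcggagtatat
Chil4: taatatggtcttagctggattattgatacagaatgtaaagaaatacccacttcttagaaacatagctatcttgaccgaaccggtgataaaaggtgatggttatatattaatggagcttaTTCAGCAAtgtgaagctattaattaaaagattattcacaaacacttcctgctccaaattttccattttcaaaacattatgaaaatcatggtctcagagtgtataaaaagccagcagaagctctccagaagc
Lcn2: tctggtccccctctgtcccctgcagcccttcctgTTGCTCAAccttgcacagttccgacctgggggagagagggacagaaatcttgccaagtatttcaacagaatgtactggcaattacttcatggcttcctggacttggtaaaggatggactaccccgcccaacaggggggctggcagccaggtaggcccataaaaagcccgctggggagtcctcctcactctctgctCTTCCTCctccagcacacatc
Aligned to each other, the Chil3 and Chil4 stretches had the same base at 201 of 221 aligned positions, with 58 gap positions besides. The C/EBP core was present upstream of Chil4 and Lcn2, the PU.1 core upstream of Lcn2, and the GATA core and the HOX and PBX site, the first capitals of its line, upstream of Chil3. Of the 55 genes highest in GFP at 20 weeks, 48 had a promoter in the RefSeq table, and the C/EBP core was present in 10 of these (20.8%): Aoah, Chil4, Dmkn, Fcnb, Gda, Lcn2, Ltf, Nlrp12, Slfn2 and Sorl1. Over the 13605 genes tested that had a promoter the share was 9.6%. The PU.1 core was present in 14.6% of the 48 and 12.6% of all, the GATA core in 12.5% and 8.7%, and the HOX and PBX site in 2.08% (1 gene, Chil3) and 2.18%. A match describes letters only, and no test was made of these shares.

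Among neutrophil genes 11 of 17 listed rose in GFP cells between 12 and 20 weeks, and 0 of 17 were called in HOXB4 cells by limma (10 at an unadjusted p under 0.05). Over all genes 406 (2.37%) changed in GFP cells with time, 1.23% upward and 1.14% downward. In HOXB4 cells 43 genes (0.252%) were called and 11.2% had an unadjusted p under 0.05. Chil3, a secreted chitinase-like protein of neutrophils and macrophages, read 5.56, 4.95 and 4.65 on the GFP arrays at 12 weeks and 9.54, 9.71 and 9.42 at 20 weeks. With HOXB4 it read 6.44, 7.1 and 7.14 at 12 weeks and 6.11, 4.38 and 4.46 at 20 weeks. All GFP arrays at 20 weeks thus lay above the other 9 arrays, 22.6-fold above GFP at 12 weeks, and the interaction was -6.40 ± 0.79 (SE, n = 3 arrays in each group, limma adjusted p = 0.00176). HOXB4 cells were 3.57-fold higher than GFP cells at 12 weeks (adjusted p = 0.0815, not called) and 23.7-fold lower at 20 weeks (adjusted p = 0.000139).

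Chil4 had the smallest adjusted p of the whole comparison (-6.07 ± 0.43, adjusted p = 1.25e-05). It is 1 of 2 called genes in which both changes in time passed, in opposite directions: it rose by 4.39 in GFP cells and fell by 1.69 in HOXB4 cells. Its probe set carries a name that marks probes shared with related genes, and Chil4's other probe set gave -0.33, so RNA of Chil3 on the Chil4 probes cannot be told apart from Chil4 itself. Lcn2, lipocalin 2, a secondary granule protein that binds bacterial siderophores, read 7.44, 6.3 and 6.77 in GFP cells at 12 weeks and 10.38, 10.65 and 10.37 at 20 weeks. Under HOXB4 the corresponding Lcn2 values were 7.71, 8.33 and 8.53, then 6.99, 5.21 and 6.62. The 20 week GFP arrays again stood above all others, and the Lcn2 interaction was -5.55 ± 0.9 (adjusted p = 0.00995).

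Camp, the cathelicidin precursor of secondary granules, differed in shape from these: GFP at 20 weeks and HOXB4 at 12 weeks were both high. It read 8.03, 7.12 and 7.53 in GFP and 9.38, 10.18 and 10.25 in HOXB4 cells at 12 weeks, then 10.49, 10.49 and 10.54 in GFP and 9.15, 7.44 and 8.07 in HOXB4 cells at 20 weeks. The vector effect therefore turned over, from HOXB4 5.18-fold above GFP at 12 weeks (adjusted p = 0.0264) to 4.88-fold below it at 20 weeks (adjusted p = 0.016). Over the 87 genes the vector effect was called at 20 weeks only in 65, at 12 weeks only in 12 and at both times in 10, and in 5 of these 10 it had opposite signs. For comparison, 688 of all genes (4.02%) were called between the vectors at 12 weeks and 1530 (8.95%) at 20 weeks; these contrasts share their arrays with the interaction, so nothing is read from their overlap.

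Of 17 measured genes of late neutrophil granules and mature neutrophils, 8 had a negative interaction that passed the test: Camp, Cd177, Chil3, Lcn2, Ltf, Mcemp1, Pglyrp1 and Wfdc21. All 17 values were negative, with a median of -2.71 against 0.02 over all genes. The mean of the list lay between 6.43 and 6.87 in GFP at 12 weeks, 6.99 and 7.42 in HOXB4 at 12 weeks, 8.56 and 8.68 in GFP at 20 weeks and 6 and 6.88 in HOXB4 at 20 weeks; it was 5.29 to 6.71 in HOXB4 at 6 weeks. These are markers of cells that a lineage-negative sort should lack, and whether such cells entered the sort or progenitors held the RNA was not tested. Without GFP at 20 weeks replicate 3 the list count was again 8.

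Within the list the genes did not move alike. Ltf, lactoferrin, had an interaction of -3.89 ± 0.52 (adjusted p = 0.0025), and Cd177, a neutrophil surface protein, one of -3.79 ± 0.52 (adjusted p = 0.0025). Pglyrp1, a peptidoglycan-binding granule protein, gave -2.33, and Wfdc21, a small secreted protein with a whey acidic protein domain, gave -2.71. Ngp, S100a8 and S100a9, among the most abundant transcripts of maturing neutrophils, had values as large as those called (-5.33, -4.67 and -4.58) but wide errors and adjusted p of 0.0601, 0.135 and 0.0632. The 33 genes with an absolute interaction of at least 2 that were not called include these, and Ngp had the largest. By contrast Cxcr2, Mmp8 and Mmp9, the chemokine receptor and the metalloproteinases of mature neutrophils, gave -0.59, -0.57 and -0.60, with adjusted p of 0.522, 0.65 and 0.425 and group means near the level of the brightest nonspecific controls. Ly6g, Retnlg and Fpr1 had no probe set with a single symbol here.

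Earlier granulocyte genes were tested as a list of their own. Of 7 primary granule genes limma called 0, and 5 had a negative interaction at an unadjusted p under 0.05. The list median was -1.18. With time its median change was 0.55 in GFP cells and -0.75 in HOXB4 cells, with 0 of 7 called in either. In HOXB4 cells 5 of 7 had an unadjusted p under 0.05 for the change in time, against 11.2% of all genes. Prtn3, proteinase 3, gave -1.89 (adjusted p = 0.202) and Mpo, myeloperoxidase, -1.10 (adjusted p = 0.314). Between the vectors, 4 of 7 were lower under HOXB4 at 12 weeks (2.2% of all genes) and 6 of 7 at 20 weeks (5.18% of all genes). Of 13 myeloid regulators and growth factor receptors only Cebpd passed, with a median of -0.71. Cebpd, a C/EBP factor of maturing granulocytes, read 6.33, 6.57 and 6.57 in GFP and 5.76, 6.07 and 5.83 in HOXB4 cells at 12 weeks, then 8.26, 8.61 and 7.48 in GFP and 5.65, 4.67 and 5.41 in HOXB4 cells at 20 weeks. It rose 3.09-fold in GFP cells with time, and the interaction was -2.27 ± 0.38 (adjusted p = 0.0122). Cebpa (-1.15), Cebpb (-0.79) and Csf1r (-1.36) did not pass, with adjusted p of 0.169, 0.135 and 0.0935.

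**Figure D2:**
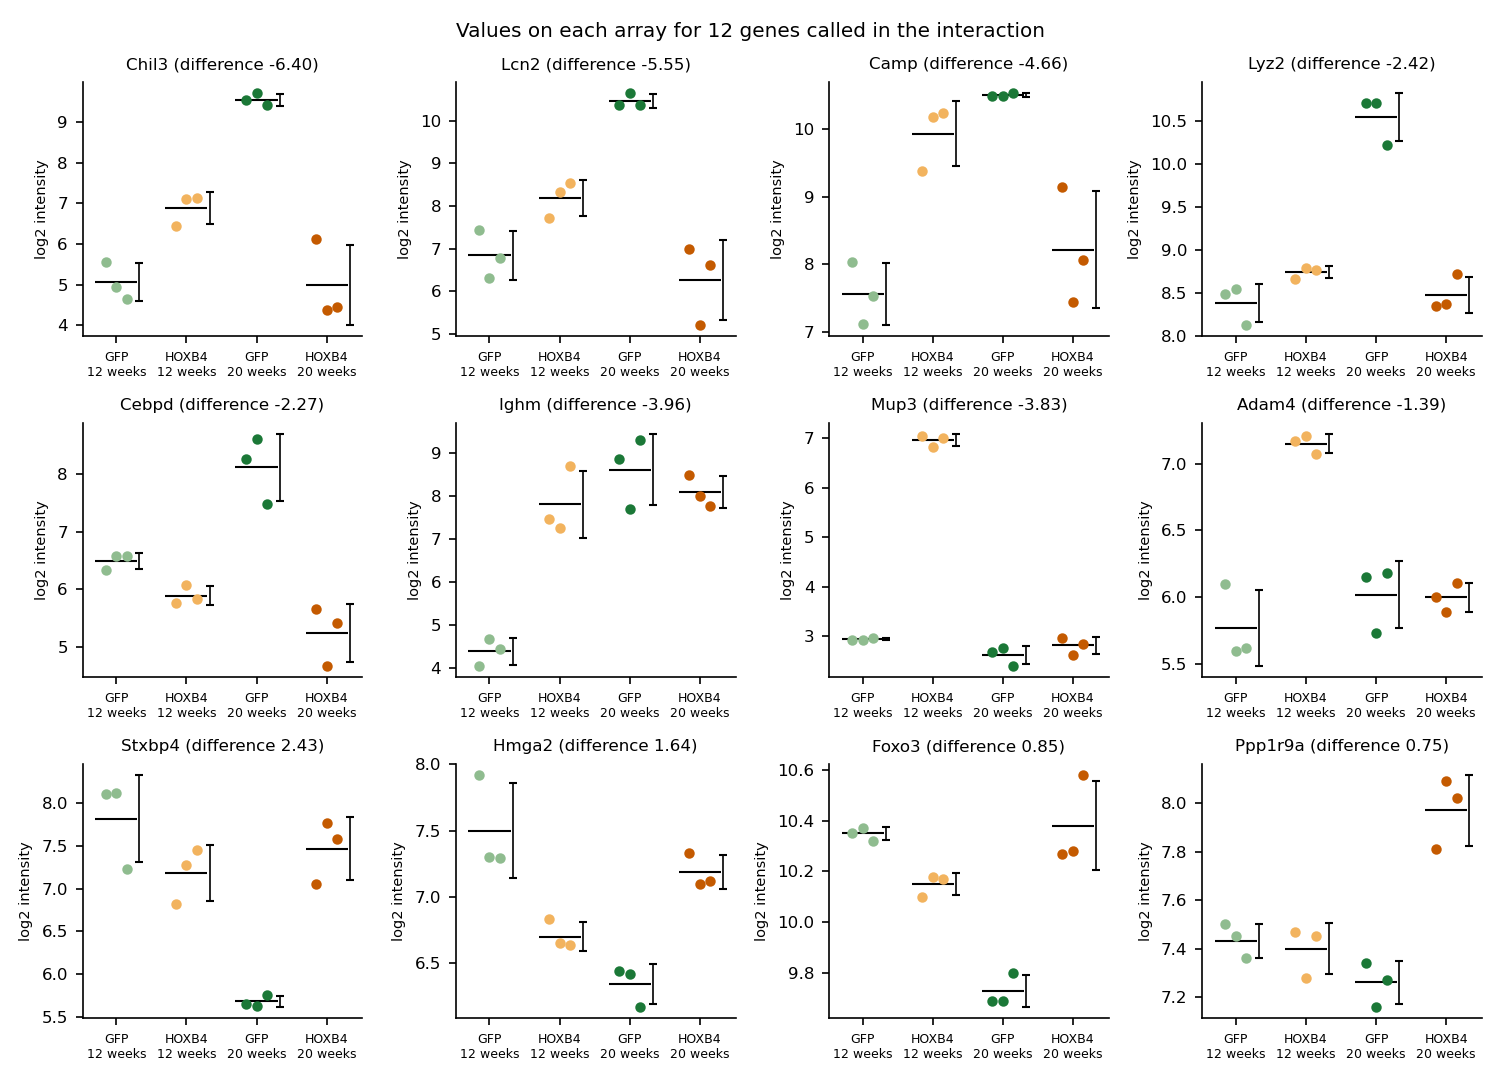
Log2 intensity of 12 called genes on each of the 12 arrays; points are arrays, black lines group means and the bars beside them 1 SD (n = 3), with the interaction in each title and a separate y axis, not starting at 0, for each gene. Chil3, Lcn2, Lyz2 and Cebpd are highest in GFP at 20 weeks. Chil3 and Lcn2 are also higher in HOXB4 at 12 weeks than in GFP at 12 weeks and HOXB4 at 20 weeks. Mup3 and Adam4 are high only in HOXB4 at 12 weeks. Ighm is low only in GFP at 12 weeks, and Stxbp4 and Foxo3 are low in GFP at 20 weeks.

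Genes of monocytes and macrophages followed, with 2 of 14 called, a median of -0.91 and 7 of 14 risen in GFP cells. Lyz2, lysozyme of granulocytes and macrophages, had a small error: it read 8.49, 8.54 and 8.13 in GFP and 8.66, 8.79 and 8.77 in HOXB4 cells at 12 weeks, then 10.7, 10.71 and 10.22 in GFP and 8.35, 8.37 and 8.72 in HOXB4 cells at 20 weeks. The 3 GFP arrays at 20 weeks were above all others, and the Lyz2 interaction was -2.42 ± 0.22 (adjusted p = 0.000176). The name of the Lyz2 probe set also marks probes that may be shared with related genes. F13a1, the coagulation factor XIII A chain of monocytes and platelets, gave -3.25 ± 0.67 (adjusted p = 0.0454). The list mean ranged from 7.42 to 7.54 in GFP at 20 weeks, against 6.39 to 6.57 in GFP at 12 weeks, 5.92 to 6.18 in HOXB4 at 12 weeks and 5.94 to 6.1 in HOXB4 at 20 weeks. Cd14 (-0.07) and Ccr2 (-0.27), receptors of classical monocytes, were not called, with adjusted p of 0.95 and 0.9.

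Together with these, the 55 genes highest in GFP at 20 weeks held further genes of innate immune cells. In all 55 the 3 arrays of that group lay above the other 9, and in 54 they also lay above the 3 arrays of HOXB4 at 6 weeks. Their change in GFP cells ranged from 0.74 to 4.50 with a median of 1.74, and was called in all 55. In HOXB4 cells the same genes changed between -1.92 and 0.28 with a median of -0.28; limma called 1 of them (Chil4), and 18 at an unadjusted p under 0.05. These calls use the arrays that chose the genes and describe the pattern without adding support to it.

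Fcnb, a ficolin that binds microbial sugars, read 9.07, 9.23 and 7.72 in GFP at 20 weeks and between 4.93 and 6.48 on the other 9 arrays, with an interaction of -4.00 ± 0.44 (adjusted p = 0.000733). Cybb, the catalytic subunit of the phagocyte NADPH oxidase, read 9.17, 9.44 and 9.41 in that group and at most 6.68 on the other 9 arrays; its interaction was -3.57 ± 0.49 (adjusted p = 0.0025), and further probe sets gave -3.58 and -3.03, both called. Ifitm6, of a family of membrane proteins that restrict viruses, gave -3.83 ± 0.39 (adjusted p = 0.000516). Receptors of innate cells in the class were Fpr2 (-2.11), for formyl peptides, Clec7a (-1.57), for fungal glucans, Clec5a (-1.96), Clec4a2 (-2.09), and Mrgpra2b (-3.26), a G protein-coupled receptor. Aoah (-2.63) removes fatty acyl chains from lipopolysaccharide, Lyst (-1.91) is needed for the sorting of lysosomes and granules, and Ceacam1 (-1.79) is an adhesion receptor. Slfn2 (-1.64) and Slfn4 (-1.39) are schlafens of myeloid cells, and Ccl6 (-1.37) is a chemokine of the same lineages.

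Not all of the class are immune genes. Nudt6, a nudix hydrolase, read 6.09, 5.79 and 5.9 in GFP at 12 weeks and 10.21, 10.2 and 8.89 in GFP at 20 weeks, and between 5.32 and 6.41 on all HOXB4 arrays of both times, an interaction of -3.57 ± 0.47 (adjusted p = 0.00222). A further Nudt6 probe set gave -3.72 and was called. Mtus1, a microtubule-associated protein, gave -3.16 ± 0.41 (adjusted p = 0.00194) and -1.94 and -2.51 on further probe sets. Fbp1 (-2.76), fructose-bisphosphatase, and Gda (-2.74), guanine deaminase, are metabolic enzymes, and Hsd11b1 (-1.65) regenerates active glucocorticoid.

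**Figure D3:**
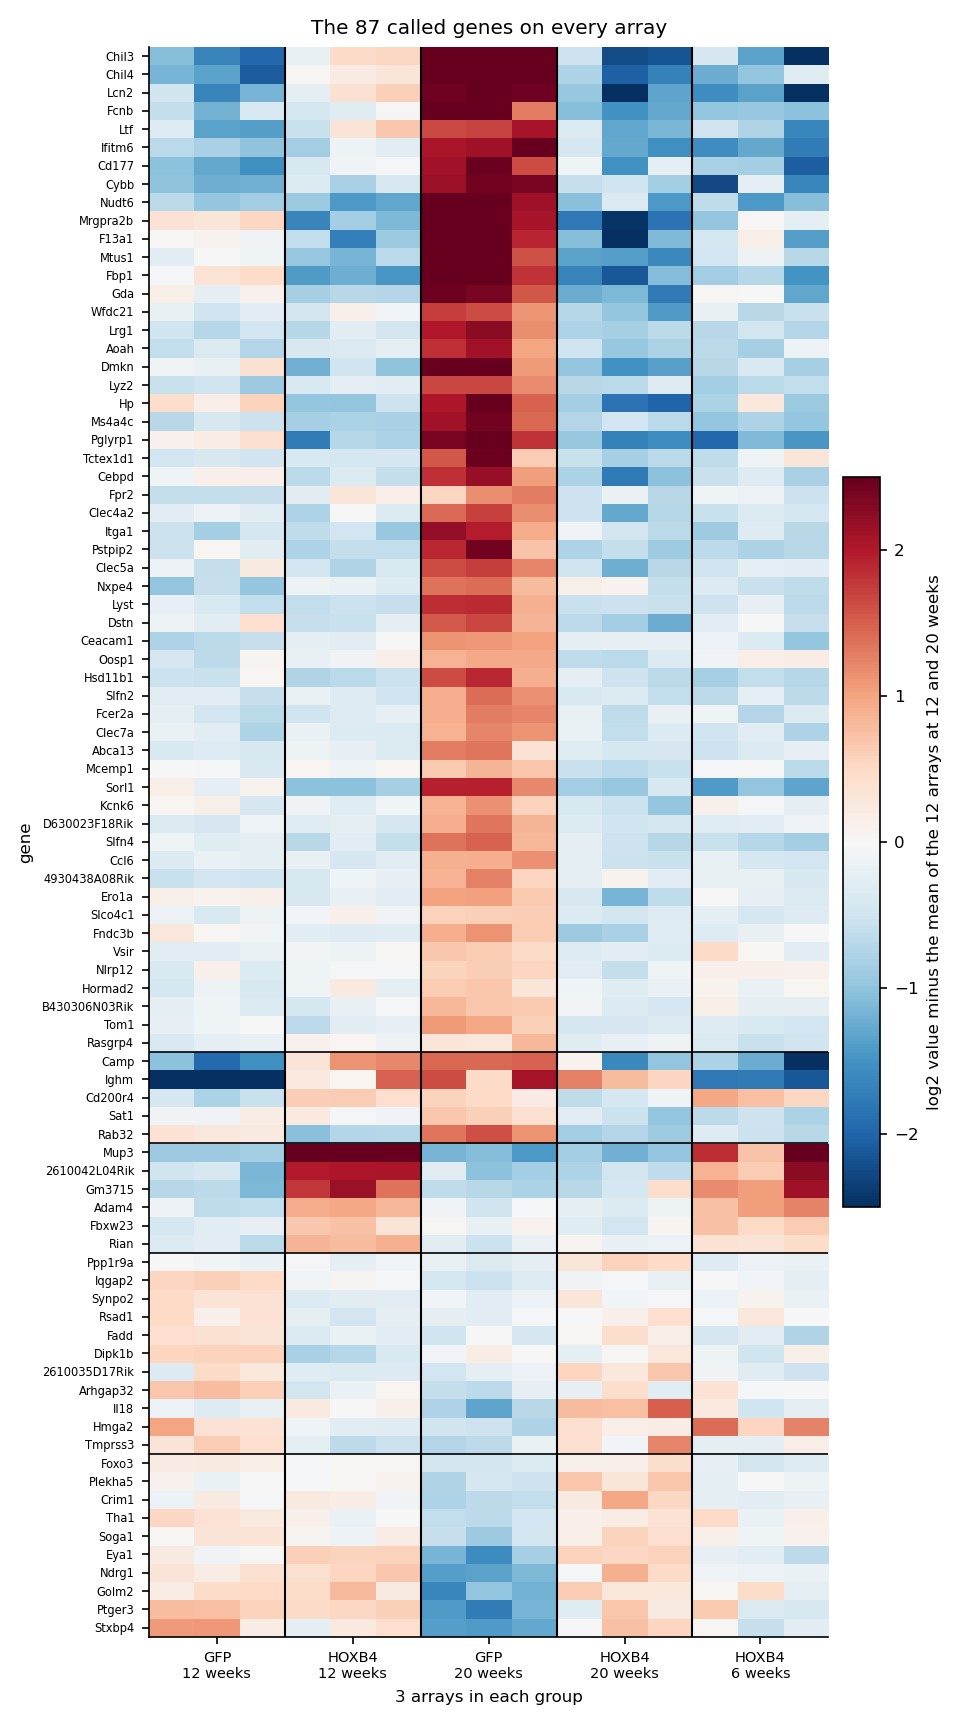
Log2 value of each of the 87 called genes (rows) on each array (columns, 3 per group), minus the gene's mean over the 12 arrays at 12 and 20 weeks, from blue (lower) to red (higher). From the top, blocks hold the 55 genes highest in GFP at 20 weeks, 5 further genes with a negative interaction, the 6 highest in HOXB4 at 12 weeks, 11 genes of various positions with a positive interaction and the 10 lowest in GFP at 20 weeks; the 6 genes high in HOXB4 at 12 weeks are also red in the columns of HOXB4 at 6 weeks.

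Ighm, the heavy chain of immunoglobulin M, was the only called gene that was low in 1 group, GFP at 12 weeks, and high in the other 3. It read 4.05, 4.67 and 4.44 there, 7.47, 7.27 and 8.71 in HOXB4 at 12 weeks, 8.86, 7.7 and 9.3 in GFP at 20 weeks and 8.49, 8.01 and 7.76 in HOXB4 at 20 weeks. HOXB4 was thus 10.7-fold above GFP at 12 weeks (adjusted p = 0.000898), and at 20 weeks the 3 GFP and the 3 HOXB4 arrays overlapped (adjusted p = 0.471). The interaction was -3.96 ± 0.55 (adjusted p = 0.00255). Of 17 measured B-lineage genes Ighm alone passed, though 16 had a negative interaction and the median was -1.11. Ebf1 (-1.35, adjusted p = 0.766), Pax5 (-1.47, 0.769) and Vpreb1 (-1.37, 0.798), the B-cell factors and the surrogate light chain, had large errors. Their list mean was 5.43 to 5.52 in GFP at 12 weeks and 6 to 7.88 in GFP at 20 weeks, against 7.33 to 7.72 and 7.65 to 8.37 in HOXB4 cells, so the 20 week GFP arrays differed widely among themselves. The part of B-lineage cells in the Ighm value was not tested.

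HOXB4 cells themselves moved in a small and separate class. In 6 genes HOXB4 at 12 weeks lay above the other 9 arrays of the 4 groups. The fall from 12 to 20 weeks was called in HOXB4 cells in all 6. The change in GFP cells lay between -0.33 and 0.29. Limma called it in 0 of 6, and 0 reached an unadjusted p under 0.05. These calls use the arrays that chose the 6 genes and add no support to the pattern. Mup3, a major urinary protein that carries pheromones and is made mainly in liver, read 7.05, 6.83 and 7.02 in HOXB4 at 12 weeks and between 2.4 and 2.96 on the other 9 arrays, which is the level of nonspecific probes. It was 17.8-fold lower in HOXB4 cells at 20 than at 12 weeks, with an interaction of -3.83 ± 0.56 (adjusted p = 0.00439). The Mup3 probe set carries the same mark as that of Chil4, so RNA of related genes cannot be told apart from Mup3 itself. 2610042L04Rik and Gm3715, predicted genes that neighbour each other on chromosome 14, gave -2.60 and -2.11. For 2610042L04Rik the HOXB4 arrays read 8.62, 8.66 and 8.68 at 12 weeks and 5.86, 6.17 and 6.01 at 20 weeks. Adam4, a member of the ADAM family known from testis, fell 2.22-fold in HOXB4 cells, and its interaction was -1.39 ± 0.23 (adjusted p = 0.0131). Fbxw23 (-1.10), an F-box protein, and Rian (-1.05), an imprinted noncoding RNA, complete the class. Further probe sets of Rian gave -0.03, -0.12 and 0.05, but their group means of 2.69 to 3.64 lay below the brightest nonspecific controls, so they may carry no signal.

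The 6-week HOXB4 arrays enter the estimate of the spread but not the value of the interaction. They were high for the same genes. Mup3 read 5.68, 4.55 and 7.06 there, 2610042L04Rik 7.51, 7.28 and 8.89, and Adam4 6.96, 7.28 and 7.48. For all 6 genes each of the 3 arrays lay above every GFP array and above every HOXB4 array at 20 weeks. HOXB4 cells were thus high at 6 and 12 weeks and low at 20 weeks for these genes, with no GFP arrays at 6 weeks to set beside them. The 6-week arrays also stood apart in quality: the Gapdh difference was 3.76, 1.68 and 1.71 on them, and they correlated with each other at 0.969 to 0.98, against 0.98 to 0.995 within the other groups. The part of this in the 6-week levels was not tested.

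The 21 positive interactions lay between 0.75 and 2.43. Their smaller number depended on the arrays: without HOXB4 at 20 weeks replicate 1 limma called 89 positive and 86 negative, and with array weights 278 and 285. In 10 of the 21 genes GFP at 20 weeks was the lowest group, below all other 9 arrays. The change in GFP cells was called in all 10, with a median of -1.10. Limma called the change in HOXB4 cells in 0 of 10, with 3 at an unadjusted p under 0.05. Here too the calls use the arrays that chose the genes and only describe the pattern. Stxbp4, a syntaxin-binding protein, read 8.11, 8.12 and 7.23 in GFP at 12 weeks and 5.65, 5.63 and 5.75 in GFP at 20 weeks. On the HOXB4 arrays at 12 and 20 weeks Stxbp4 read 6.82 to 7.77. Its interaction was 2.43 ± 0.35 (adjusted p = 0.00426); further probe sets gave 2.25, called, and -0.15. Ptger3, a prostaglandin E2 receptor, gave 1.82 ± 0.38 and lay at the edge of the threshold (adjusted p = 0.0498). Ndrg1 (1.48), a gene induced by hypoxia, fell 2.98-fold in GFP cells and read between 8.33 and 9.24 on the HOXB4 arrays at 12 and 20 weeks.

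Eya1 (1.24), a transcriptional cofactor, Golm2 (1.55), a Golgi membrane protein, Soga1 (1.22), Tha1 (1.20), a threonine aldolase, Crim1 (1.16), which binds BMPs, and Plekha5 (1.09) share the position. Further probe sets gave smaller values, none called: 0.86 for Eya1, 0.74 for Crim1, 0.44 for Golm2, 0.31 for Soga1, and 0.41 and -0.07 for Plekha5. Foxo3, a transcription factor required to keep stem cells quiescent, read 10.35, 10.37 and 10.32 in GFP and 10.1, 10.18 and 10.17 in HOXB4 cells at 12 weeks. At 20 weeks the Foxo3 values were 9.69, 9.69 and 9.8 in GFP and 10.27, 10.28 and 10.58 in HOXB4 cells. The change was small and the arrays tight, with an interaction of 0.85 ± 0.15 (adjusted p = 0.0208) and 0.61 and 0.59 on further probe sets, not called.

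Another 5 positive genes crossed, with GFP high at 12 weeks and HOXB4 high at 20 weeks: Hmga2 (1.64), Tmprss3 (1.98), Fadd (1.16), Rsad1 (1.0) and 2610035D17Rik (1.25). Hmga2, a chromatin protein of fetal and self-renewing stem cells, read 7.92, 7.3 and 7.29 in GFP and 6.83, 6.65 and 6.64 in HOXB4 cells at 12 weeks, then 6.44, 6.42 and 6.17 in GFP and 7.33, 7.1 and 7.12 in HOXB4 cells at 20 weeks. The vectors thus swapped order, and neither pair of groups overlapped; the interaction was 1.64 ± 0.29 (adjusted p = 0.0181), and 1 of 3 further probe sets (2.10) was called. Ppp1r9a, neurabin, which anchors a phosphatase to actin, was the only called gene with a called rise in HOXB4 cells and no called change in GFP cells: 7.47, 7.28 and 7.45 at 12 weeks became 7.81, 8.09 and 8.02 at 20 weeks, while all GFP arrays lay between 7.16 and 7.5 (0.75 ± 0.15, adjusted p = 0.0447). The call was kept in 9 of 27 alternatives, and on further Ppp1r9a probe sets with interactions of 0.85 and 0.53, not called, GFP cells changed more (-0.67 and -0.36) than HOXB4 cells (0.19 and 0.17). Il18, a cytokine of the interleukin 1 family, was highest in HOXB4 at 20 weeks (5.29, 5.26 and 6.01) and lowest in GFP at 20 weeks (3.74, 3.18 and 3.82), with neither change in time called (1.59 ± 0.32, adjusted p = 0.0378).

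By calls, 72 of the 87 genes had a change in time in GFP cells only, 7 in HOXB4 cells only (the 6 above and Ppp1r9a), 2 in both with opposite signs (Chil4 and Cd200r4) and 6 in neither. At an unadjusted p under 0.05 these became 48, 7, 32 and 0, so the HOXB4 change of many GFP genes lies between both thresholds and a lack of change there is not shown. The change was larger in GFP than in HOXB4 cells for 75 of the 87. Apart from the classes given, Iqgap2, Synpo2 and Arhgap32 were highest in GFP at 12 weeks, Dipk1b was lowest in HOXB4 at 12 weeks, Sat1 was lowest in HOXB4 at 20 weeks, and Rab32 was higher in GFP at both times. Cd200r4 crossed as Camp did.

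The lists of megakaryocyte, stem cell, lymphoid priming, MHC class II, interferon, erythroid, HoxA and HoxB genes held no called gene. Their medians lay above that of all genes, while the primary granule and myeloid regulator lists given above had negative medians. Of 18 megakaryocyte genes limma called 0 in the interaction, and 6 were positive at an unadjusted p under 0.05; their median was 0.51, and 8 of them fell in GFP cells, beside 1.14% of all genes. Itga2b, the platelet integrin CD41, read 8.55, 8.59 and 8.22 in GFP at 12 weeks and 6.65, 6.63 and 6.89 at 20 weeks, and its interaction was 1.47 ± 0.32 (adjusted p = 0.0601). Pf4, platelet factor 4, gave 1.89 (adjusted p = 0.235). Of 21 long-term stem cell genes 0 passed, and 9 were positive and 1 negative at an unadjusted p under 0.05, with a median of 0.48; 4 fell and 1 rose in GFP cells. Procr (1.46), Angpt1 (1.10) and Hoxb5 (1.04), all used to mark or support stem cells, had adjusted p of 0.187, 0.177 and 0.0776. Medians were 0.54 for 14 lymphoid priming genes, 0.68 for 11 MHC class II genes, 0.40 for 26 interferon genes and 0.09 for 17 erythroid genes, with 0 called by limma in each and 5, 1, 5 and 4 positive at an unadjusted p under 0.05. On the negative side the lymphoid list held 1 and the erythroid list 2 at that p. Median values of 0.46 for 13 HoxA genes and cofactors and 0.26 for 9 HoxB genes also came with 0 called and 4 positive at an unadjusted p under 0.05 in each. The other 20 lists, of further cell types, signalling, metabolism, stress and the cell cycle, held 0 called genes by limma, with medians between -0.38 (23 immediate-early genes, 5 negative at an unadjusted p under 0.05) and 0.23 (11 mast cell and basophil genes, 3 positive and 1 negative). Among them 26 antioxidant and glutathione genes had 7 negative and 1 positive at that p, and 28 TGF-beta and BMP genes 6 positive and 1 negative. Cd27, a receptor of early lymphoid progenitors, was just outside the threshold (0.93 ± 0.2, adjusted p = 0.0505).

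**Figure D4:**
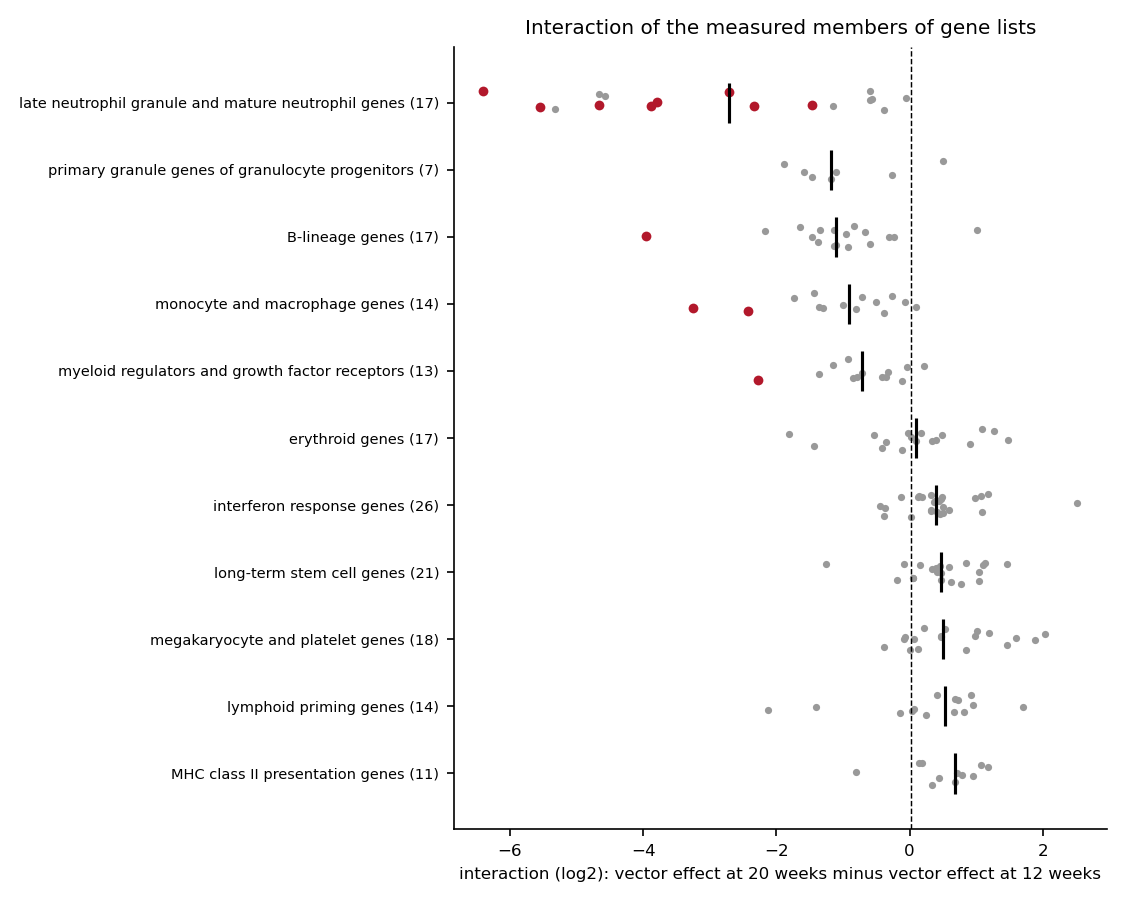
Interaction (x axis, log2) of each measured member of 11 gene lists, with the number measured in brackets; red points were called, grey points were not, black bars are list medians and the dashed line is the median of all genes, 0.02. The neutrophil list reaches from -6.40 to near 0 with 8 red points, while the megakaryocyte, stem cell, lymphoid priming and MHC class II lists lie mostly right of the line with none.

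Prdm16, a stem cell transcription factor, had the most negative value of the 21 long-term stem cell genes, of which Mycn (-0.19) and Pdzk1ip1 (-0.09) were also negative. Its tested probe set read 5.99, 5.9 and 5.86 in GFP and 5.89, 5.64 and 5.82 in HOXB4 cells at 12 weeks, then 7.42, 7.59 and 6.69 in GFP and 6.03, 5.84 and 5.64 in HOXB4 cells at 20 weeks. GFP at 20 weeks was above all other arrays, with an interaction of -1.26 ± 0.26 just outside the threshold (adjusted p = 0.0505). When all 28898 named probe sets were fitted, of which 125 were called (0.433%), the 3 other Prdm16 probe sets gave -2.16, -2.95 and -3.21 and were called. Mecom, its close relative, gave 0.48 (adjusted p = 0.178). Hemgn, a nuclear protein of blood progenitors, gave 0.91 (adjusted p = 0.269), Hoxa9 0.89 (0.175) and Meis1 0.78 (0.645). The probe set of Hoxb4 gave 0.16 (adjusted p = 0.95). In the fit of all named probe sets, a further probe set gave 1.46 for Meis1, 0.46 for Mecom and 0.52 for Hoxb4. Limma called none of these (adjusted p of 0.206, 0.569 and 0.543). Whether the Hoxb4 probe sets also read RNA of the vector was not tested, so they check neither the vector nor its level.

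For 32 of the 87 genes a further probe set could be compared, 58 in all. Of these 52 had the sign of the tested probe set, 17 were called in the fit of all named probe sets, and 0 were called with the other sign. At least 1 further probe set was called in 12 genes, among them Gda, Ceacam1, Sorl1 and Fcer2a, all with a negative interaction. Among genes with a positive interaction only Hmga2, Rsad1 and Stxbp4 had one called. Probe sets of the other sign belonged to Fadd (-0.17), Plekha5 (-0.07), Stxbp4 (-0.15) and Synpo2 (-0.03), which were positive. The others were of Aoah (0.02) and Rian (0.05), which were negative. Nearest the threshold on its inner side were Rasgrp4 (-0.95, adjusted p = 0.0476), Ptger3 and 2610035D17Rik (both 0.0498), and on its outer side Otud1 (1.24, 0.0503), Zfp936 (-2.10, 0.0505) and Prdm16. When the variance of each gene was used with no moderation across genes, 22 genes were called, 20 of them among the 87.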

How the data were processed

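RNA of fluorescent LSK cells was measured on 15 mouse arrays in 5 groups of 3. Per the submitters' processing notes, which name RMA and Partek 6.5, the authors deposited log2 values. The array's probe table and RefSeq gave 1 symbol to 28898 of 45141 probe sets, and the brightest named probe set over all arrays stood for each of 17097 genes. In limma 3.58.1 (R 4.3.3), 1 mean per group was fitted to all 15 arrays (10 residual degrees of freedom, 4.55 prior). Two-sided p-values were adjusted by Benjamini-Hochberg across all genes; called means an adjusted p under 0.05. The median standard error was 0.22 for the interaction and 0.15 for a difference of 2 groups, so the interaction is the less precise. A group stood apart where its mean was separated from the other 3 by the widest gap between the ordered group means. The fit was tested on simulated data. The 3 arrays per group limit the precision.

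The genes named were the 15 largest in each direction without predicted genes, the 4 largest in each class, 6 fixed genes (Prdm16, Mecom, Hemgn, Meis1, Hoxa9 and Hoxb4) and up to 4 genes of each of 33 lists with the smallest p. Other genes named were chosen after their values were seen. The comparison, the members and the lists were chosen with earlier results of these data known.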

Additional observations from a re-analysis of the deposited data

Results flagged for a closer look

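All of the following are differences of the HOXB4 effect between 12 and 20 weeks that were tested as such, through the interaction in limma: 87 genes passed. The largest negative values were Chil3 -6.40, Chil4 -6.07, Lcn2 -5.55, Camp -4.66, Fcnb -4.00, Ighm -3.96, Ltf -3.89, Ifitm6 -3.83, Mup3 -3.83, Cd177 -3.79, Nudt6 -3.57, Cybb -3.57, Mrgpra2b -3.26, F13a1 -3.25 and Mtus1 -3.16. The largest positive values were Stxbp4 2.43, Tmprss3 1.98, Ptger3 1.82, Hmga2 1.64, Il18 1.59, Golm2 1.55, Ndrg1 1.48, Arhgap32 1.35, Eya1 1.24, Soga1 1.22, Tha1 1.20, Dipk1b 1.18, Crim1 1.16, Fadd 1.16 and Plekha5 1.09.

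Signals were also seen in data outside the comparison. Among 16139 probe sets without a single gene symbol, 29 were called when all probe sets were fitted, 21 negative and 8 positive. The HOXB4 arrays at 6 weeks enter no contrast here, only the estimate of the spread. Their mean log2 level was 5.76 for Mup3, 7.90 for 2610042L04Rik, 6.54 for Gm3715, 7.24 for Adam4, 5.29 for Fbxw23 and 5.28 for Rian. In each case it lay above all GFP arrays. With 3 arrays in a group, no array was tested as an outlier.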

How the results depend on the processing

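Over 27 alternatives 0 of the 87 genes changed sign, 10 were called in every one (Chil3, Fcnb, Mtus1, Wfdc21, Lrg1, Aoah, Oosp1, Slfn2, Ccl6 and Iqgap2) and 36 in all 15 fits that left out an array; the number called moved far more. With the 12 arrays alone it was 183 (86 of the 87 kept), and the counts for GFP over time, HOXB4 over time and the vectors at 12 weeks were 625, 135 and 1138. Without moderation of the variances these were 22, 204, 0 and 308; for HOXB4 over time 1795 genes then had an unadjusted p under 0.05. With array weights they were 563 (278 positive, 285 negative), 1892, 108 and 2791. With the dimmest genes removed 20 genes were called for HOXB4 over time, and with all named probe sets 2408 for the vectors at 20 weeks. With unnamed probe sets included, a choice made after seeing the data, 692 were called for GFP over time, 166 for HOXB4 over time, and 1457 and 3011 for the vectors at 12 and 20 weeks. Leaving out 1 array gave 38 to 222 for the interaction, 192 to 511 for GFP over time, 1 to 101 for HOXB4 over time, 214 to 957 for the vectors at 12 weeks and 798 to 1829 at 20 weeks. The interaction count was 152 without HOXB4 at 6 weeks replicate 3; 47, 54 and 54 without each GFP array at 12 weeks; 57, 38 and 47 without each HOXB4 array at 12 weeks; 39 and 222 without GFP at 20 weeks replicates 1 and 3; and 175 and 57 without HOXB4 at 20 weeks replicates 1 and 2. The negative share was 75.9%, and 84.1% after a further quantile normalization, 49.1% without HOXB4 at 20 weeks replicate 1. With the replicate number as a block 76 genes were called for the interaction (69 of the 87) and 14 for HOXB4 over time. The 18 pairs of equal number correlated between -0.17 and 0.06, and 36 pairs of different number between -0.11 and 0.15. With 3 arrays per group these values cannot decide whether arrays of equal number are paired. By unadjusted p, 48 in place of 72 genes changed in GFP cells only. Genes that changed sign were not called: Mgst1 was 0.14 when marked probe sets were left out (main value -2.55), and Hoxb4, 0.16 in the report, ranged from -0.09 to 0.52 when 1 array was left out, being -0.02 without GFP at 20 weeks replicate 3 and -0.09 without HOXB4 at 20 weeks replicate 2. The causes of these shifts were not tested. With 3 arrays per group, and 45 genes with a group mean under the brightest nonspecific control, small changes and folds of dim genes are poorly determined.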
